A study of Mus musculus with 20 samples.

Results

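Immunoglobulin variable (V) genes are the germline segments that B cells join to diversity (D) and joining (J) segments to build an antibody gene. The V genes described here are the 156 symbols starting with Ighv (heavy chain), Igkv (kappa light chain) or Iglv (lambda light chain) whose counts summed to 200 or more over the 10 libraries of multipotent progenitors (MPP). They were chosen by these counts from 346 V symbols among 49568 genes, and comprise 69 Ighv, 84 Igkv and 3 Iglv genes. Bone marrow cells were sorted as long-term hematopoietic stem cells (LT-HSC) or MPP from untreated mice of 8 to 12 weeks, either wild type (WT, C57BL/6) or labelled as lacking Ahr (Ahr-KO), which encodes a ligand-activated transcription factor, the aryl hydrocarbon receptor. There were 5 poly(A) RNA libraries for each cell type and genotype, with 13712668 to 21622653 counts. The series looks for genes through which this receptor acts on stem cell function and division.

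The labels do not name the knockout allele. Levels are given as CPM, counts scaled to a common library total with edgeR's TMM factors, and not per gene length. Ahr itself was at 20.8 to 36.6 CPM in WT LT-HSC and 18.5 to 29.7 CPM in Ahr-KO LT-HSC. In MPP it was at 5.79 to 14.2 CPM in WT and 9.79 to 19.2 CPM in Ahr-KO. The genotypes overlapped, and a count over a whole gene does not show whether a part of it is deleted, so directions below are between libraries as labelled. The summed level of 8 LT-HSC markers was 1532 to 1952 CPM in LT-HSC libraries and 482 to 861 CPM in MPP libraries, and that of 4 MPP markers was 428 to 626 CPM against 1590 to 2355 CPM. Ahr-KO LT-HSC 2 and 3 had the lowest sums of LT-HSC markers among LT-HSC libraries, at 1532 and 1628 CPM, with the others at 1818 CPM or more. They also stood apart by neutrophil genes, as described with their V genes.

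Each B cell carries 1 productive heavy chain rearrangement and, as a rule, 1 productive light chain rearrangement, and its progeny keep them. Antibody-secreting plasma cells make far more immunoglobulin RNA than other B-lineage cells, so the V genes in a bulk RNA sample reflect the clones that contributed most of this RNA. Stem cells and multipotent progenitors have not yet rearranged V genes in the course of B cell development, although unrearranged V genes can be transcribed at a low level. V gene usage also differs between kinds of B cell. The innate-like B-1 cells are known for recurrent rearrangements, such as Ighv11-2 with Igkv14-126 in antibodies to phosphatidylcholine and Ighv7-1 in antibodies to phosphorylcholine. In bulk samples, fewer cells of a type and less RNA per cell cannot be told apart.

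The germline sequences of 6 V genes are printed because the results turn on them: 4 genes were high in every MPP library and 2 led the library with the highest V gene total. Each is the V exon of the GENCODE M21 transcript on GRCm38, 5′ to 3′ (its last 300 bases where it is longer), with capitals from the codon of the conserved cysteine near its 3′ end to the end of the exon, the germline start of the third complementarity-determining region (CDR3). Ighv11-2 is printed from chr12:114048241-114048540 and Ighv7-1 from chr12:113896408-113896707, both on the minus strand of the heavy chain locus. Igkv14-126 lies at chr6:67896345-67896642 and Igkv15-103 at chr6:68437628-68437925, both on the plus strand of the kappa locus.

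Ighv11-2: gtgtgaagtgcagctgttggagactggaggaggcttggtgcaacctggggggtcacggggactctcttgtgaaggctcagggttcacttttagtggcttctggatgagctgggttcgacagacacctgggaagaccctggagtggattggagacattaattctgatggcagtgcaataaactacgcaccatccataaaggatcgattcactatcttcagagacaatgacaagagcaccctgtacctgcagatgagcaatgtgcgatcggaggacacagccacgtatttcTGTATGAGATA

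Igkv14-126: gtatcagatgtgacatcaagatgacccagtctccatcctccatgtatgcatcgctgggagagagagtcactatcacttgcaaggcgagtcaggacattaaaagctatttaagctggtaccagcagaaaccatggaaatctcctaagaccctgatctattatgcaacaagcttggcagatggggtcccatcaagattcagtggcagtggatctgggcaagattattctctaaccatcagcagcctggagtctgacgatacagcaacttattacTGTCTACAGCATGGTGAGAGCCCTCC

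Ighv7-1: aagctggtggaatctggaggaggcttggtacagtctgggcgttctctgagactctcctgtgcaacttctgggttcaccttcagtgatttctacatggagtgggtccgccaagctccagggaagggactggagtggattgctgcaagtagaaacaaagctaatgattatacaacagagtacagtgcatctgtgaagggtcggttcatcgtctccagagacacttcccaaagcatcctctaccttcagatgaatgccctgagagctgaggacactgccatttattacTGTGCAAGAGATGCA

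Igkv15-103: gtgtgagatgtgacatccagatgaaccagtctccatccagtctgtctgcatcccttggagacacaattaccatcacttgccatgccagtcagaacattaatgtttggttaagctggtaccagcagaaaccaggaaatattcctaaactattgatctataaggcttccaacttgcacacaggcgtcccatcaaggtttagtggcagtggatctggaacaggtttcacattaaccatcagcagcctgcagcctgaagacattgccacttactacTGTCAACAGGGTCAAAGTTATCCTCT

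The leading genes of WT MPP 3 were Ighv1-64, at chr12:115507545-115507844 on the minus strand, and Igkv10-96, at chr6:68631963-68632260 on the minus strand.

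Ighv1-64: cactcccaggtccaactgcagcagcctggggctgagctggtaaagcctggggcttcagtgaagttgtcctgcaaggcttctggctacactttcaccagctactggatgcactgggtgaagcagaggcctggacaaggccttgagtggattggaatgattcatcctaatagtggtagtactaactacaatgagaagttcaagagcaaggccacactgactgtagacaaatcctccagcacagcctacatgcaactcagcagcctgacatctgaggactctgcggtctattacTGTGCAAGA

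Igkv10-96: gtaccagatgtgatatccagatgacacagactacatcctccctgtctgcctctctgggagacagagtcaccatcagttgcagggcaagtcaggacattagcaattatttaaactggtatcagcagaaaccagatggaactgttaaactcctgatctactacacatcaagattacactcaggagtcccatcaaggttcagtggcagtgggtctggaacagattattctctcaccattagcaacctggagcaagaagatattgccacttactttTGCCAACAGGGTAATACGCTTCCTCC

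Of the 156 genes, 148 (94.9%) were annotated as functional V genes and 8 as pseudogenes, against 217 of all 346 (62.7%). They held 99.2% of the 924898 V counts of the MPP libraries and 97.8% of the 38024 V counts of the LT-HSC libraries, and 13 of them had no count in any LT-HSC library. Just inside the threshold were Igkv4-56 with 207 counts and Ighv1-19 with 201. Just outside were Ighv2-6 with 199 and Ighv1-34 with 198. V genes resemble each other: of the 148 functional genes, whose V exons were compared by sequence, 82 had another V gene of at least 95% identity, with a median identity to the nearest copy of 95.4%. Counts of such genes are uncertain where reads were split between copies. Ighv11-2 and Ighv11-1 differ by 4 edits in 307 bases (98.7% identity). Ighv11-1 stood at 0.216 to 0.356 of the Ighv11-2 count in every library with at least 100 counts of both. Whether reads were split between these 2 genes was not tested, so their separate counts are uncertain. Igkv15-103 had no such copy (75.2% identity to its nearest V gene), and Igkv14-126 and Ighv7-1 were 90.9% and 89.3% identical to theirs.

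V gene RNA was present in all 10 MPP libraries and near the limit of counting in 7 of 10 LT-HSC libraries. The summed level of all V genes was 6636, 4847, 19153, 3587 and 4498 CPM in WT MPP 1 to 5. In Ahr-KO MPP 1 to 5 it was 2565, 983, 1806, 3402 and 4435 CPM. WT MPP 3 was the highest, at 1.78% of all its counts, Ahr-KO MPP 2 the lowest, at 0.0996%, and the genotypes overlapped. The group means were 7744 ± 6473 CPM (SD, n = 5) in WT MPP and 2639 ± 1346 CPM (SD, n = 5) in Ahr-KO MPP. Without WT MPP 3 the WT mean was 4892 CPM. These totals are a description, without a test.

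**Figure D1:**
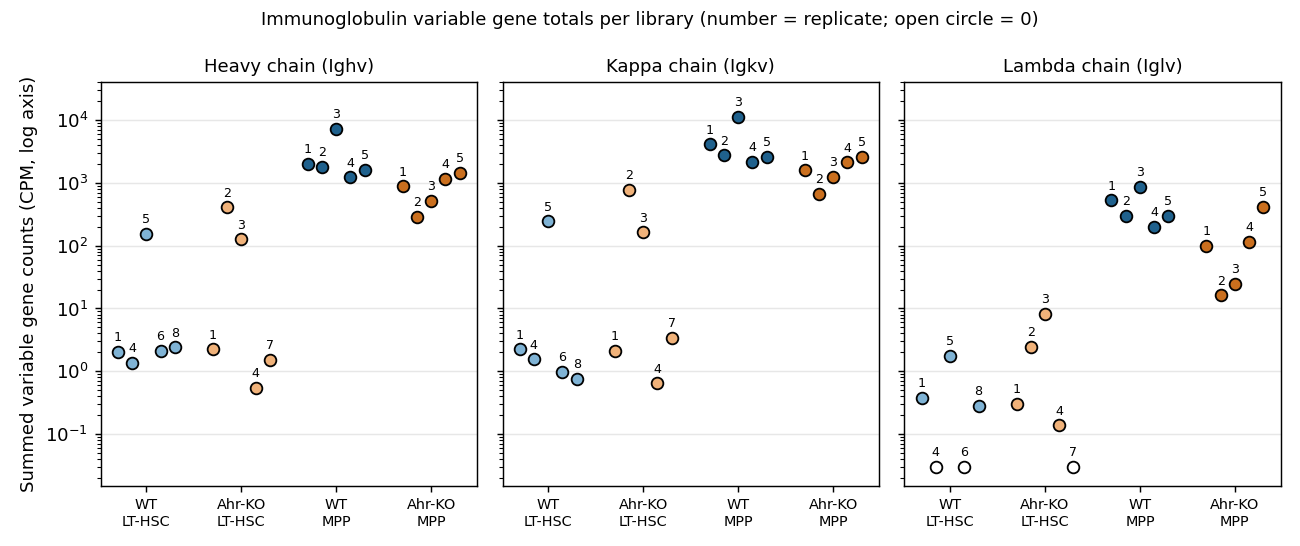
Summed V gene counts of the heavy, kappa and lambda loci in the 20 libraries (CPM, log axis), by group; each point is a library, with its replicate number, and open circles at the foot mark a count of 0. The MPP libraries lie between 983 and 19153 CPM over all loci, and WT LT-HSC 5 and Ahr-KO LT-HSC 2 and 3 stand above the other 7 LT-HSC libraries.

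Kappa counts were 1.51 to 2.43 times the heavy chain counts in the 10 MPP libraries (median 1.81). This ratio was 1.71 ± 0.22 (SD, n = 5) in WT and 2.04 ± 0.31 (SD, n = 5) in Ahr-KO, and the ranges overlapped. Lambda genes varied more, from 1.36% of V counts in Ahr-KO MPP 3 to 9.32% in Ahr-KO MPP 5. Iglv1, the most used mouse lambda V gene, held 33740 of the lambda counts of the MPP libraries, followed by Iglv2 with 16217 and Iglv3 with 960. Iglv1 was at 468, 117, 501, 143 and 210.2 CPM in WT MPP 1 to 5 and at 50.6, 12.2, 5.35, 65.4 and 336 CPM in Ahr-KO MPP 1 to 5. Iglv2 exceeded Iglv1 only in WT MPP 2 (179 against 117 CPM) and Ahr-KO MPP 3 (19.0 against 5.35 CPM) of the 10 MPP libraries.

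Exactly 4 of the 156 genes reached 10 CPM in all 10 MPP libraries, a level chosen after the values were seen: Ighv11-2, Ighv7-1, Igkv14-126 and Igkv15-103. Ighv11-2 was at 183, 623, 914, 222 and 382 CPM in WT MPP 1 to 5, and at 334, 45.1, 25.5, 91.8 and 43.5 CPM in Ahr-KO MPP 1 to 5. Igkv14-126, the gene of the kappa chain known as Vkappa9, was at 490, 1084, 1713, 403 and 990 CPM in WT, and at 535, 119, 52.6, 186 and 98.4 CPM in Ahr-KO. For both genes, Ahr-KO MPP 1 lay within the WT range and the other 4 Ahr-KO libraries lay below every WT library. Ighv7-1 was at 141, 379.9, 1133, 489.7 and 213 CPM in WT MPP 1 to 5, and at 88.2, 57.2, 56.5, 240.1 and 266 CPM in Ahr-KO. Igkv15-103 was at 155, 565, 1764, 856 and 419 CPM in WT, and at 145, 98.3, 91.4, 421 and 401 CPM in Ahr-KO. For these 2 genes Ahr-KO MPP 4 and 5 lay within the WT range, so the Ahr-KO libraries that overlapped WT were not those of the other 2 genes.

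The 4 genes formed 2 pairs of a heavy and a kappa gene whose levels moved together. The ratio of Igkv14-126 to Ighv11-2 counts ranged from 1.60 to 2.67 over the 10 MPP libraries (median 2.04), while the genes themselves ranged 35.8-fold (Ighv11-2) and 32.6-fold (Igkv14-126). The ratio of Igkv15-103 to Ighv7-1 counts ranged from 1.10 to 1.97 (median 1.63), while these genes ranged 20.1-fold and 19.3-fold. Crossed, the ratios ranged from 0.37 to 6.07 (Igkv14-126 to Ighv7-1) and from 0.43 to 9.22 (Igkv15-103 to Ighv11-2). The SD of the log2 ratio was 0.26 and 0.22 for the 2 pairs and 1.30 and 1.35 for the crossed pairs. All 4 combinations of these genes were computed, and the pairing is a description of these libraries, without a test. Bulk counts do not show which chains were made by the same cell.

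**Figure D2:**
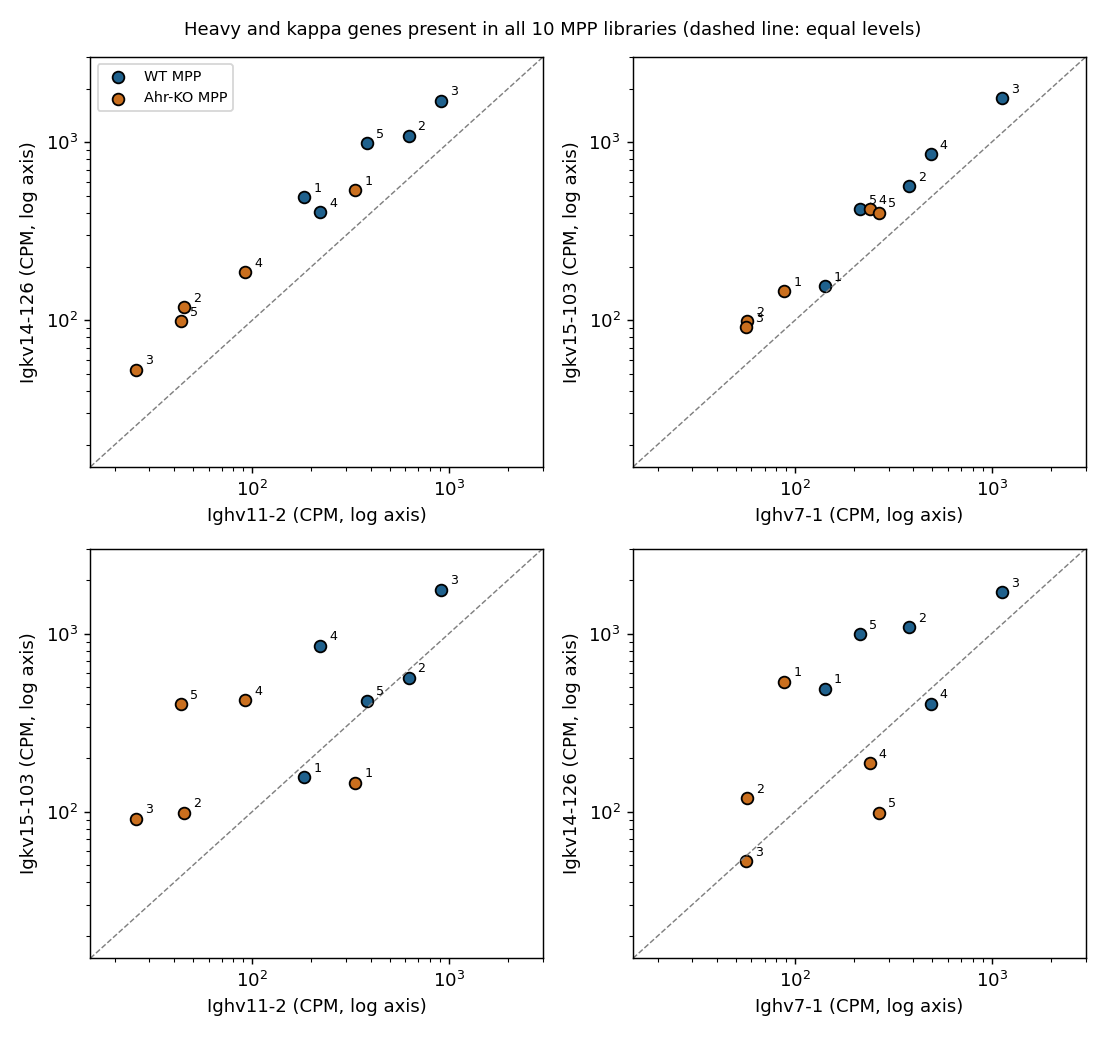
CPM (log axes) of the 4 V genes that reached 10 CPM in all 10 MPP libraries, heavy chain gene against kappa gene, in WT (blue) and Ahr-KO (orange) MPP libraries numbered by replicate; the dashed line marks equal levels. In the upper panels the kappa to heavy ratios stay within 1.60 to 2.67 and 1.10 to 1.97, and in the lower, crossed panels the points scatter.

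Together the 4 genes held 15.8% to 58.1% of heavy chain counts and 11.4% to 60.2% of kappa counts in the MPP libraries. Their share of the heavy chain was 39.1% ± 17.7 (SD, n = 5) in WT and 29.8% ± 12.5 (SD, n = 5) in Ahr-KO, and their share of kappa was 43.9% ± 19.6 and 26.9% ± 12.1 (SD, n = 5 each). The heavy chain difference was smaller than both SDs. The kappa difference was smaller than the SD within WT and larger than that within Ahr-KO. WT MPP 4 (58.1% and 58.2%) and WT MPP 2 (55.4% and 60.2%) held the most, and Ahr-KO MPP 3 (15.8% and 11.4%) the least. The other B-1 pair known for phosphatidylcholine binding, Ighv12-3 with Igkv4-91, was low: Ighv12-3 reached 38.4 CPM in WT MPP 3 and at most 10.4 CPM elsewhere, and Igkv4-91 reached 22.5 CPM in WT MPP 3 and at most 10.4 CPM elsewhere. Igkv7-33, which with Ighv7-1 encodes a well-known antibody to phosphorylcholine, was at 23.8 CPM or less and had no count in 4 of the 5 Ahr-KO MPP libraries. A count of 0 there allows up to 0.151 to 0.216 CPM. These 3 genes were looked at for their known partners, after the levels were seen.

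Most other V genes were high in single libraries. The median share of a gene's summed MPP level that came from its highest library was 52.6% over the 156 genes, and 88 of them had over 50% in 1 library. Over the 14662 genes with at least 200 MPP counts the median was 13.0%, and 96 (0.655%) had over 50% in 1 library. The highest library was a WT library for 112 of the 156 genes, and WT MPP 3 for 52. No count was found for 84 of the genes in at least 1 MPP library. These shares are a description, since the choice of genes used the same counts.

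Of the genes with over 50% in 1 library, 16 also reached 200 CPM there, limits chosen after the values were seen. WT MPP 3 held 5 of them. Ighv1-64 was at 2792 CPM in that library (99.2% of its summed level) and at most 9.88 CPM in the other 9. Igkv10-96 was at 3726 CPM there and at most 55.7 CPM elsewhere. These 2 genes held 39.0% of the heavy chain counts and 33.5% of the kappa counts of WT MPP 3, with 48917 and 65272 counts. Its other 3 were the kappa genes Igkv12-89 (877 CPM), Igkv10-94 (729 CPM) and Igkv9-120 (385 CPM). Igkv10-94 is 94.6% identical to Igkv10-96, and its count was 0.196 of the Igkv10-96 count in WT MPP 3. The ratio was similar in WT MPP 1 (0.307), WT MPP 4 (0.222), Ahr-KO MPP 5 (0.202) and Ahr-KO LT-HSC 2 (0.213). It was 1.02 in Ahr-KO MPP 3 and 4.93 in WT LT-HSC 5. Whether reads were split between these 2 genes in WT MPP 3 was not tested.

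In 4 further MPP libraries a heavy and a kappa gene were both high in this way. WT MPP 1 held Ighv1-81 at 608 CPM (next highest 11.2 CPM) and Igkv4-59 at 1323 CPM (next highest 86.8 CPM), with Igkv4-68 at 342 CPM and Igkv6-23 at 236 CPM. Ahr-KO MPP 4 held Ighv1-75 at 468 CPM (next highest 37.8 CPM) and Igkv1-122 at 904 CPM (next highest 36.5 CPM). Those 2 genes made up 40.2% of its heavy chain counts and 42.6% of its kappa counts. Ahr-KO MPP 5 held Ighv9-4 at 257 CPM (next highest 2.17 CPM) and Igkv4-53 at 420.03 CPM (next highest 46.7 CPM). WT MPP 5 held Ighv5-16 at 588 CPM and Igkv1-88 at 462 CPM, and both were next highest in WT MPP 3, at 376 and 179 CPM. WT MPP 2 held 1 such gene, Igkv3-10, at 205 CPM. WT MPP 4 and Ahr-KO MPP 1, 2 and 3 held none. The share of all V counts that fell to the 16 genes in their own libraries was highest in WT MPP 3 (44.4%), Ahr-KO MPP 4 (40.3%) and WT MPP 1 (37.8%).

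A further pair was shared by 4 libraries of both genotypes. Ighv1-5 was at 221, 106, 201 and 216 CPM in WT MPP 1 and Ahr-KO MPP 1, 3 and 5, at 25.2 CPM in WT MPP 3 and at most 2.42 CPM in the other 5. Igkv1-135 was at 432, 349, 641 and 552 CPM in the same 4 libraries and at most 78.0 CPM in the others. Its count was 1.95 to 3.30 times that of Ighv1-5 in these 4. In Ahr-KO MPP 3 the 2 genes held 38.6% of heavy chain counts and 50.8% of kappa counts. This pair was picked out after its values were seen.

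**Figure D3:**
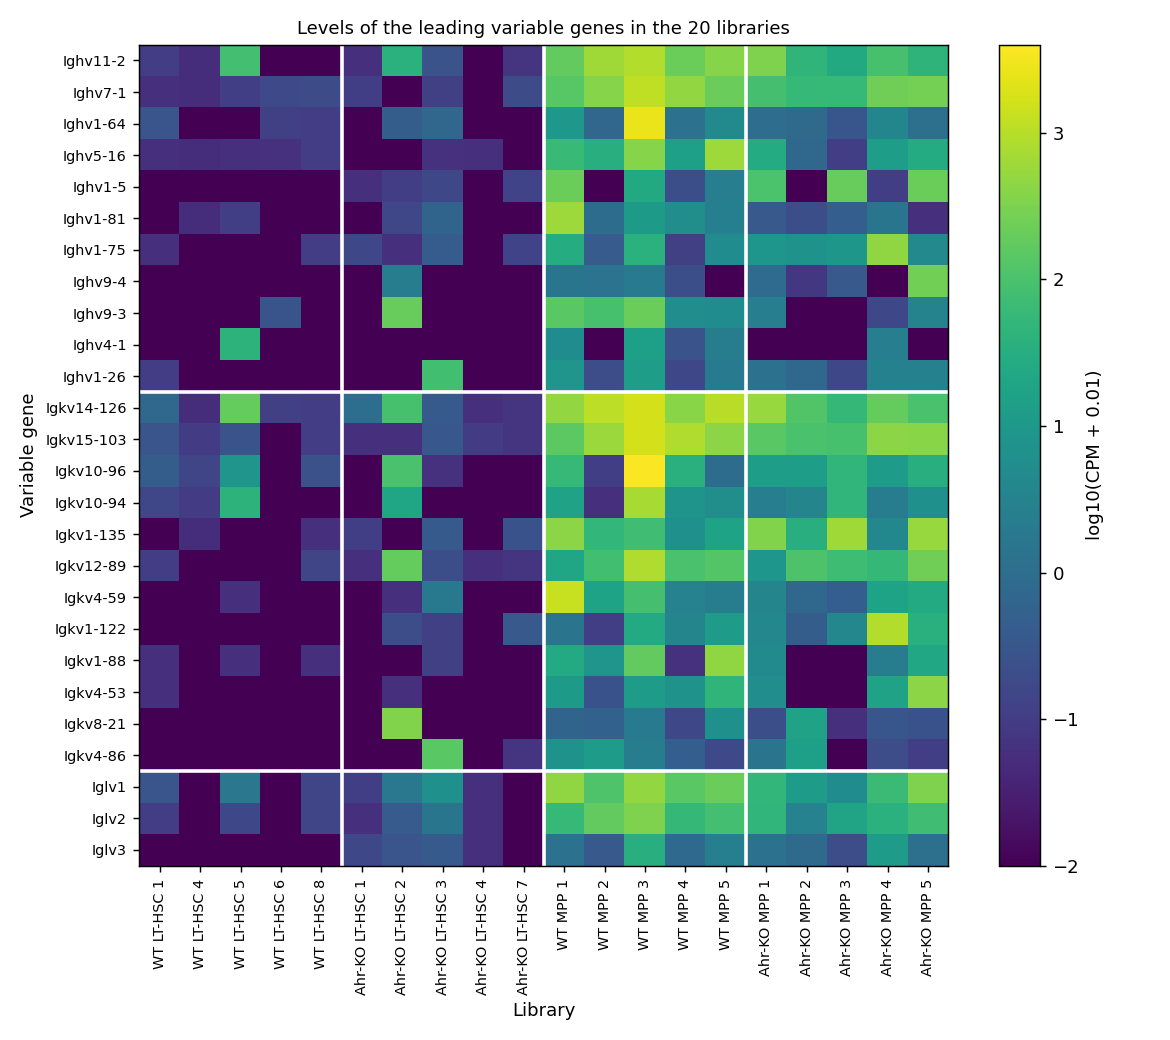
Levels of 26 V genes (log10 of CPM + 0.01, colour scale) in the 20 libraries, with white lines between groups and between heavy, kappa and lambda genes. Ighv11-2, Ighv7-1, Igkv14-126 and Igkv15-103 are high in all 10 MPP libraries, and most other genes are bright in 1 or a few libraries only, such as Ighv1-64 (2792 CPM) in WT MPP 3.

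The leading heavy chain gene took 18.7% to 40.2% of heavy chain counts in the MPP libraries, and the leading kappa gene 17.5% to 50.8% of kappa counts. Counting error on these shares was at most 1.22 percentage points for heavy and 0.769 for kappa genes (95% Wilson intervals, half-width), and covers counting only. Ighv7-1 led in WT MPP 4 and Ahr-KO MPP 2 and 5, and Ighv11-2 led in WT MPP 2 and Ahr-KO MPP 1. Ighv1-81, Ighv1-64, Ighv5-16, Ighv1-5 and Ighv1-75 led in WT MPP 1, 3 and 5 and Ahr-KO MPP 3 and 4. Among kappa genes Igkv14-126 led in WT MPP 2 and 5 and Ahr-KO MPP 1 and 2, Igkv1-135 in Ahr-KO MPP 3 and 5, Igkv15-103 in WT MPP 4, and Igkv4-59, Igkv10-96 and Igkv1-122 in WT MPP 1, WT MPP 3 and Ahr-KO MPP 4.

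Diversity was measured as the effective number of V genes, the exponential of the Shannon entropy, which is the number of equally used genes that would give the same entropy. For the heavy chain it was 15.8, 10.1, 10.2, 9.89 and 8.98 in WT MPP 1 to 5, and 10.8, 19.5, 11.9, 10.3 and 17.1 in Ahr-KO MPP 1 to 5. For kappa it was 14.2, 9.76, 10.7, 9.71 and 9.61 in WT, and 10.3, 16.1, 8.21, 9.57 and 16.2 in Ahr-KO. Ahr-KO MPP 2 and 5 and WT MPP 1 were the highest at both loci, and the genotypes overlapped. The means were 11.0 ± 2.74 and 13.9 ± 4.14 for heavy, and 10.8 ± 1.94 and 12.1 ± 3.79 for kappa (SD, n = 5, WT and Ahr-KO). The heavy difference was larger than the SD within WT and smaller than that within Ahr-KO, and the kappa difference was smaller than both. At an equal depth of 2404 heavy chain counts a library was expected to show 65.6 ± 6.72 V genes in WT and 72.5 ± 4.49 in Ahr-KO, and at 3105 kappa counts 62.5 ± 2.42 and 58.6 ± 7.32 (SD, n = 5 each). At these depths the heavy difference was larger than both SDs. The kappa difference went the other way, larger than the SD within WT and smaller than that within Ahr-KO. The ranges of the genotypes overlapped at both loci. WT MPP 3, the library with the highest V gene total, stood close to WT MPP 2 and 4 by the effective number at both loci.

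**Figure D4:**
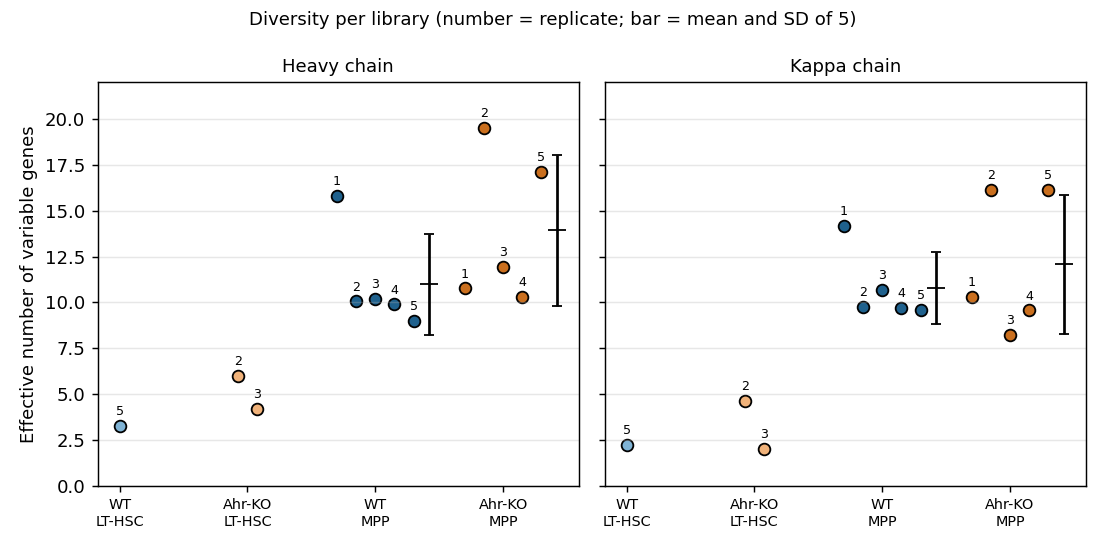
Effective number of V genes per library for the heavy and kappa chain, in the 13 libraries with at least 100 counts at each locus, with replicate numbers; bars give the mean and SD of the 5 MPP libraries of a genotype. The MPP libraries lie between 8.98 and 19.5 (heavy) and between 8.21 and 16.2 (kappa), and the 3 LT-HSC libraries lie at 6.00 or less.

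Usage was compared between libraries as the overlap of their gene shares, the sum over genes of the smaller of the 2 shares, which is 100% for identical usage. Between 2 WT MPP libraries the median overlap was 44.6% for heavy and 42.9% for kappa (10 pairs of libraries). It was 38.6% and 37.7% between 2 Ahr-KO MPP libraries (10 pairs) and 35.3% and 35.6% between a WT and an Ahr-KO MPP library (25 pairs). Single pairs ranged from 25.4% to 60.7% for heavy and from 20.2% to 63.3% for kappa, wider than the gaps between these medians. Pairs that share a library are not independent, and no test was made.

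LT-HSC libraries fell into 7 with almost no V gene counts and 3 with many. WT LT-HSC 1, 4, 6 and 8 were at 4.66, 2.90, 3.07 and 3.44 CPM, and Ahr-KO LT-HSC 1, 4 and 7 at 4.67, 1.33 and 4.96 CPM. These rest on 29 to 98 V counts in a library, too few for leading genes or diversity: the leading gene there had 2 to 21 counts. WT LT-HSC 5 was at 399.8 CPM, Ahr-KO LT-HSC 2 at 1187 CPM and Ahr-KO LT-HSC 3 at 297 CPM, with 7855, 24006 and 5668 V counts. WT LT-HSC 5 and Ahr-KO LT-HSC 3 lay below all 10 MPP libraries, and Ahr-KO LT-HSC 2 lay above Ahr-KO MPP 2 (983 CPM) and below the other 9. The group means were 82.8 ± 177 CPM (SD, n = 5) in WT and 299 ± 512 CPM (SD, n = 5) in Ahr-KO, and fell to 3.52 and 3.65 CPM without these 3 libraries.

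Each of the 3 LT-HSC libraries had its own few dominant genes. In WT LT-HSC 5, Ighv11-2 held 54.5% (95% Wilson interval 52.7% to 56.3%) and Ighv4-1 26.4% (24.9% to 28.0%) of 3042 heavy chain counts, and Igkv14-126 held 76.7% (75.5% to 77.9%) of 4778 kappa counts. The ratio of Igkv14-126 to Ighv11-2 was 2.21 there, within the range of the MPP libraries, while Ighv7-1 and Igkv15-103 had 2 and 5 counts. Ighv4-1 and the second kappa gene, Igkv10-94, had 803 and 804 counts. In Ahr-KO LT-HSC 2, Ighv9-3 held 48.7% (47.6% to 49.7%) of 8262 heavy chain counts, and Igkv8-21 45.3% (44.6% to 46.1%) and Igkv12-89 24.0% (23.3% to 24.6%) of 15695 kappa counts. Ighv11-2 and Igkv14-126 were present with 749 and 1867 counts, a ratio of 2.49. In Ahr-KO LT-HSC 3, Ighv1-26 held 63.0% (61.1% to 64.9%) of 2404 heavy chain counts and Igkv4-86 89.5% (88.3% to 90.5%) of 3105 kappa counts.

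The effective numbers of heavy chain genes were 3.27, 6.00 and 4.21 in WT LT-HSC 5 and Ahr-KO LT-HSC 2 and 3, and those of kappa genes 2.25, 4.64 and 2.02, below all 10 MPP libraries. The V genes expected at the equal depth were, in the same order, 21.7, 37.6 and 63.0 for heavy and 29.8, 32.9 and 57.0 for kappa. The MPP ranges were 55.9 to 78.0 and 46.7 to 66.6, so by this number Ahr-KO LT-HSC 3 lay within them. Replicate numbers do not tie LT-HSC to MPP libraries of the same number in the labels. The overlap of usage of WT LT-HSC 5 with the 10 MPP libraries was 4.11% to 47.4% for heavy genes, highest with Ahr-KO MPP 1, and 5.94% to 40.9% for kappa genes, highest with WT MPP 2. For Ahr-KO LT-HSC 2 and 3 it was 3.03% to 28.8% for heavy genes, highest between Ahr-KO LT-HSC 2 and Ahr-KO MPP 2, and 3.06% to 37.2% for kappa genes, highest between Ahr-KO LT-HSC 2 and WT MPP 3. Ighv9-3, which led Ahr-KO LT-HSC 2, had no count among the 4045 heavy chain counts of Ahr-KO MPP 2, which allows a share of up to 0.0742%.

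Isotypes differed between these libraries. Ighm, the constant gene of IgM, held 92.3% to 99.3% of heavy chain constant counts in the MPP libraries (counting error at most 0.240 percentage points). In WT LT-HSC 5 it held 99.98% (95% Wilson interval 99.93% to 99.99%), and Igha, the constant gene of IgA, had no count. Igha held 45.8% (45.2% to 46.4%) in Ahr-KO LT-HSC 2 and 65.0% (64.0% to 66.1%) in Ahr-KO LT-HSC 3. Jchain, which joins IgM and IgA into polymers, was at 47.4, 259.9 and 91.1 CPM in the 3 libraries and at most 2.12 CPM in the other 7. The summed level of 6 neutrophil genes was 886 CPM in Ahr-KO LT-HSC 2 and 1321 CPM in Ahr-KO LT-HSC 3, that of 5 red cell genes 2025 and 2552 CPM, and that of 6 macrophage genes 114 and 115 CPM. WT LT-HSC 5 had 23.9, 477 and 36.6 CPM for the same 3 lists, and WT LT-HSC 6, with 3.07 CPM of V genes, had 1703 CPM of red cell genes. The part of these cells in the V gene levels was not tested.

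The Ahr-KO and WT MPP libraries were compared gene by gene with edgeR's quasi-likelihood test, calling genes at a Benjamini-Hochberg adjusted p under 0.05 across the whole table. Of 16077 genes tested 5 were called (0.0311%). Of the 156 V genes 115 passed the filter on low counts and none was called. At an unadjusted p under 0.05, 33 of the 115 were lower in Ahr-KO and 1 was higher, Ighv9-4, together 34, against 3.49% lower and 3.13% higher of all genes tested (6.62% in either direction). The log2 fold change was below 0 for 89 of the 115 (49.1% of all genes tested), and its median was -1.70, against 0.00 over all genes. Without WT MPP 3 the median was -0.87, with 77 of 123 tested genes below 0 and 22 lower at an unadjusted p under 0.05, against 48.2% and 2.86% of all genes, and 5 were higher. DESeq2 called 3 of the V genes (0.311% of all genes tested) and gave no adjusted p for 28. V genes counted in the same library share its cells, so they are not independent of each other. The 156 genes were also chosen by their counts in these same MPP libraries, and 112 of them were highest in a WT library. The numbers of V genes lower or higher and their median are therefore a description and are not read as a genotype result. Nothing in the labels says that libraries came from separate mice, so p values measure the spread between these libraries.

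The 3 genes called by DESeq2 were lower in Ahr-KO. Igkv4-79, of which a 96.1% identical copy exists (Igkv4-78), was at 6.61, 40.1, 1.03, 47.9 and 22.6 CPM in WT MPP 1 to 5 and at 0 to 0.858 CPM in Ahr-KO. It was lower in 5 of 5 Ahr-KO libraries than in any WT library, and its fitted log2 difference was -5.50 ± 1.09 (SE), adjusted p 0.342 in edgeR and 0.000453 in DESeq2. Ighv9-3 was at 144, 92.4, 225, 5.54 and 5.34 CPM in WT and at 0 to 3.19 CPM in Ahr-KO, again without overlap. Its log2 fold change was -6.32 ± 1.52 (SE), with an adjusted p of 0.554 in edgeR and 0.0256 in DESeq2. Ighv1-62-3, of which a 99.0% identical copy exists (Ighv1-72), was at 1.82 to 25.2 CPM in WT and 0.656 to 2.40 CPM in Ahr-KO, and the groups overlapped. For Ighv1-62-3 the log2 fold change was -2.65 ± 0.69 (SE), with an adjusted p of 0.538 in edgeR and 0.0136 in DESeq2. Over all 115 genes, 3 had no overlap between the genotypes, all lower in Ahr-KO (0.56% of all genes tested): Igkv4-79, Ighv9-3 and Igkv4-80. These 3 were at 3.19 CPM or less in Ahr-KO and were among the chosen genes through their WT counts, so their direction is a description. The lowest WT and highest Ahr-KO levels were close for Igkv4-79 (1.03 and 0.858 CPM) and Igkv4-80 (0.661 and 0.561 CPM).

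The 4 genes that reached 10 CPM in all MPP libraries had lower fitted levels in Ahr-KO without passing the test. The log2 fold changes were -2.11 ± 0.82 for Ighv11-2, -2.25 ± 0.70 for Igkv14-126, -1.75 ± 0.70 for Ighv7-1 and -1.71 ± 0.72 for Igkv15-103 (SE). Their adjusted p values in edgeR were 0.675, 0.614, 0.707 and 0.731. Without WT MPP 3, the log2 fold changes were -1.72, -1.91, -1.11 and -1.11. Iglv2, the lambda gene with the smallest p, had a log2 fold change of -1.95 ± 0.81 (SE) and an adjusted p of 0.731 in edgeR.

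In LT-HSC no V gene passed the filter on low counts, so that none of the 156 was tested. Of 16065 genes tested 1 was called (0.00622%). The Ahr-KO effect in MPP was then compared with that in LT-HSC in 1 edgeR fit of all 20 libraries. Of 17416 genes none was called (0%), with 1125 (6.46%) at an unadjusted p under 0.05, and 51 were called by DESeq2 (0.293%). V genes were at or near 0 in 7 of the 10 LT-HSC libraries. They passed the filter of this fit only with the MPP libraries on which they were chosen. No count over them and no size of a fitted difference is therefore read as a result. Igkv4-91 had the smallest p (adjusted p = 0.296 in edgeR and 0.0451 in DESeq2). Its 16 LT-HSC counts lay in Ahr-KO LT-HSC 3 (15) and WT LT-HSC 4 (1).

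Related genes were read from 4 lists. Of 13 genes in the list of constant regions and Jchain, 11 were tested in MPP and 10 had a log2 fold change below 0 (median -1.54), with none called. Iglc3, a lambda constant gene, had the smallest p, at -2.46 ± 0.85 (SE) with an adjusted p of 0.655 in edgeR. It was the 1 gene of the list without overlap (58.9 to 279.96 CPM in WT, 2.44 to 55.7 CPM in Ahr-KO). Of all genes tested, 0.56% were lower in Ahr-KO without overlap. Ighm and Igkc, the constant genes of IgM and kappa, were at -1.54 ± 0.57 and -1.45 ± 0.53 (SE; adjusted p 0.663 for both in edgeR). Jchain was at 724, 1001, 4081, 674 and 845 CPM in WT MPP 1 to 5 and at 761, 198, 344, 1184 and 912 CPM in Ahr-KO MPP 1 to 5, so the groups overlapped. Its log2 fold change of -1.12 moved to -0.25 without WT MPP 3, and those of Ighm and Igkc to -0.84 and -0.78.

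Of 16 plasma cell genes all were tested, 15 had a log2 fold change below 0 (median -0.47) and none was called. Tnfrsf17, the receptor BCMA that plasma cells need for survival, was at 2.11 to 15.6 CPM in WT and 0.509 to 2.26 CPM in Ahr-KO, and its fitted log2 difference was -2.11 ± 0.60 (SE; adjusted p 0.554 in edgeR). The summed level of the list was 934 to 1980 CPM in WT and 892 to 1067 CPM in Ahr-KO. In LT-HSC it was 715 to 919 CPM in WT and 787 to 982 CPM in Ahr-KO, so the cell types overlapped. None of its genes was at 0 over a whole group of either cell type, and its summed level does not set MPP apart. WT MPP 3 had the highest level of the MPP libraries for Tnfrsf17 (15.6 CPM), for Sdc1, the plasma cell surface marker CD138 (95.4 CPM), and for Mzb1, a chaperone of IgM assembly (65.9 CPM), as it had for the V genes. Mzb1 did not overlap between the cell types, at 0 to 3.61 CPM in LT-HSC and 12.2 to 65.9 CPM in MPP. Sdc1 did not either, at 3.33 to 14.9 CPM in LT-HSC and 20.9 to 95.4 CPM in MPP. Tnfrsf17 overlapped, at 0 to 0.593 CPM in LT-HSC and 0.509 to 15.6 CPM in MPP. The part of plasma cells in the V gene totals was not tested.

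Most recombination and surrogate light chain genes had fitted changes above 0, unlike the V genes, and the B cell genes were divided. Of 14 B cell genes in the files 12 were tested, and 8 had a log2 fold change above 0 (median 0.19). Over all 16077 genes tested, 8185 were above 0. None of the 12 was called by edgeR, while DESeq2 called 2 (0.311% of all genes tested). Of 7 recombination and surrogate light chain genes 6 were above 0 (median 1.42), with none called by edgeR. Igll1, which encodes lambda5 of the surrogate light chain of pro-B and pre-B cells, was at 0.954 to 8.70 CPM in WT and 11.5 to 18.1 CPM in Ahr-KO, without overlap (0.61% of all genes tested were higher without overlap). Its log2 fold change was 2.08 ± 0.45 (SE), with an adjusted p of 0.342 in edgeR and 0.00131 in DESeq2. The following B cell markers were low in all MPP libraries: Ms4a1 (CD20) at 0.140 to 5.39 CPM, Pax5, the factor that commits cells to the B lineage, at 0 to 2.21 CPM, Cr2 (CD21) at 0 to 0.576 CPM and Fcer2a (CD23) at 0 to 0.968 CPM. Others of the list were not, such as Cd79a at 5.93 to 33.4 CPM. The summed level of the B cell list was 117 to 168 CPM in WT MPP and 139 to 196 CPM in Ahr-KO MPP. In LT-HSC it was 69.1 to 118 CPM in WT and 81.2 to 120 CPM in Ahr-KO.

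**Figure D5:**
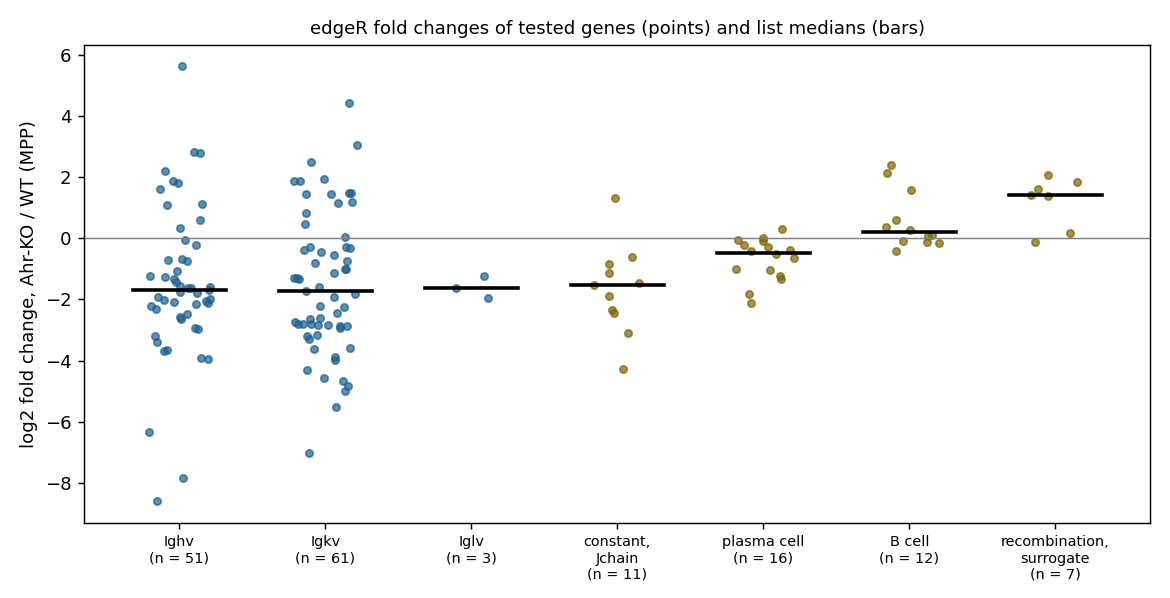
edgeR log2 fold changes of Ahr-KO against WT in MPP for the V genes tested, by locus, and for the 4 lists of related genes (points), with the median of each (black bar); the horizontal spread is for display only. The V gene medians lie at -1.70 (Ighv), -1.71 (Igkv) and -1.63 (Iglv), the constant and Jchain median at -1.54, the plasma cell median at -0.47, and the B cell and recombination medians at 0.19 and 1.42; no gene shown was called by edgeR.

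In LT-HSC the same lists had few genes above the filter and no gene called by edgeR. Of the constant genes 3 of 13 were tested, and Jchain had the smallest p, at 2.86 ± 1.89 on the log2 scale (SE; adjusted p 0.707 in edgeR). Without Ahr-KO LT-HSC 2 and 3 its value was -3.32. Of 12 plasma cell genes tested, Txndc5, a protein disulfide isomerase of the endoplasmic reticulum, had the smallest p, at 0.24 ± 0.10 (SE; adjusted p 0.530 in edgeR). Of 7 B cell genes tested Cd22 had the smallest p, at 3.18 ± 1.07 (SE; adjusted p 0.507 in edgeR). Vpreb3, a pre-B cell receptor assembly protein, was at 3.55 ± 0.95 (SE), with an adjusted p of 0.444 in edgeR and 0.0185 in DESeq2 (0.915% of all genes were called by DESeq2), and edgeR gave 1.74 when those libraries were left out. In the comparison of effects the smallest p values of the 4 lists belonged to Igha, Tnfrsf17, Fcrla and Vpreb2, of which none was called by edgeR. DESeq2 called Igha and Tnfrsf17, with adjusted p values of 5.6e-05 and 0.0230. Neither passed the filter in LT-HSC alone, so both entered this fit only with the MPP libraries. In LT-HSC, Igha rested on Ahr-KO LT-HSC 2 (13391 counts) and 3 (5184 counts), with at most 4 counts in any other library. Tnfrsf17 was at 0 to 0.593 CPM in the LT-HSC libraries. These 2 calls are therefore not read as a difference of effects.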

How the data were processed

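Poly(A) RNA of sorted LT-HSC and MPP was sequenced in 20 libraries, 5 in each of 4 groups taken from the labels. The authors deposited raw counts per gene symbol in a table for each cell type, unfiltered; per the submitters' processing notes the build was GRCm38.p5 and the tools included DESeq2 1.12.4, featureCounts of Subread 1.5.0p3, STAR 2.5.2b and Trimmomatic 0.36. How reads that map to several V genes were counted is not given in the sources used here, and without a strand-specific kit overlapping genes cannot be told apart. From these counts, edgeR 4.0.16 (R 4.3.3, limma 3.58.1) gave TMM-scaled CPM and its quasi-likelihood test on genes kept by filterByExpr, with robust estimates and adjustment over all genes tested. DESeq2 1.42.0, other scalings, no filter, a replicate block and leaving out libraries were alternatives. The procedure was tested on simulated data.

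V gene totals and diversity used all 346 V symbols, matched to GENCODE M21 (GRCm38), whose transcripts gave the sequences; identity between V exons was the edit distance over the longer exon, computed with edlib. Diversity was computed for the 13 libraries with at least 100 counts at each locus, and rarefaction went to the smallest of these, since the other 7 held too few counts. Named are the 5 V genes of each locus with the most MPP counts (3 for lambda), the leading genes of libraries, V genes called or with the smallest p, the smallest p of each list, and genes chosen after their values were seen, which the text marks. One gene that this rule names is not reported here. The leading genes of the 7 libraries with few counts are given by count only. The members and the gene lists were chosen with earlier results of these data known. Symbol Faim3 of the B cell list did not match. The limits of 10 CPM, 200 CPM, 50% and 100 counts were set after the values were seen. Intervals (Wilson, 95%) and limits from a count of 0 (3 counts) cover counting error only.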

Additional observations from a re-analysis of the deposited data

Results flagged for a closer look

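Single libraries stood apart from the other 4 of their group (Dixon's criterion at the 95% level) in 27 of 66 group checks. The criterion assumes normally distributed values, and many of the levels checked were strongly skewed, so the number expected by chance is not known. The checks share libraries and are not independent.

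WT LT-HSC 5 accounted for 9. It had 399.8 CPM of V genes (others at most 4.66), 155 CPM of heavy, 243 CPM of kappa and 1.78 CPM of lambda V genes, and 626 CPM of heavy constant genes. Ighv11-2 was at 84.4 CPM, Igkv14-126 at 186 CPM, Jchain at 47.4 CPM and Igll1 at 0.102 CPM, the last on few counts and with none in the other 4 libraries. Ahr-KO LT-HSC 2 accounted for 6, with 1187 CPM of V genes (others at most 297), 776 CPM of kappa genes, 1445 CPM of heavy constant genes, Ighv11-2 at 37.0 CPM, Igkv14-126 at 92.3 CPM and Tnfrsf17 at 0.593 CPM. In Ahr-KO LT-HSC 3, Igkv15-103 was at 0.314 CPM, on 6 counts against at most 2 in the others of its group.

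WT MPP 3 accounted for 6, with 19153 CPM of V genes (others at most 6636), 7155 CPM of heavy and 11136 CPM of kappa genes, 31488 CPM of heavy constant genes, Jchain at 4081 CPM and Tnfrsf17 at 15.6 CPM. WT MPP 1 had the highest effective numbers of its group, 15.8 for heavy and 14.2 for kappa genes. Ahr-KO MPP 1 stood above its group in Ighv11-2 (334 CPM, others at most 91.8) and Igkv14-126 (535 CPM, others at most 186). Ahr-KO MPP 5 stood above its group in lambda genes, at 413.5 CPM against at most 116 CPM.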

How the results depend on the processing

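The count of genes called in MPP was 5 and became 3 with DESeq2 size factors, 50 with DESeq2 and 0 to 4 when libraries were left out one at a time. V genes called in MPP went from 0 to 3 with DESeq2 and to 0 to 1 on leaving out libraries; the 1 was Igkv4-91 without WT MPP 1 (-6.66 ± 0.75, SE, adjusted p 0.0402 in edgeR). In LT-HSC the 1 gene called became 3 with DESeq2 size factors, 4 with no filter, 147 with DESeq2, 32 without WT LT-HSC 1 and Ahr-KO LT-HSC 2 and 3, and 0 to 203 on leaving out libraries (203 without WT LT-HSC 1); no V gene was called in any of these. For the difference of effects DESeq2 called 51 genes and 12 V genes in place of 0, and leaving out libraries gave 0 each time. The 12 were of 130 V genes tested, and 11 of them were among the 156 genes. None of the 12 passed the filter in LT-HSC alone, so they entered this fit only with the MPP libraries. These calls are therefore not read as a difference of effects. The inverse Simpson index gave 5.49 (WT) and 7.12 (Ahr-KO) for heavy and 5.42 and 6.52 for kappa genes. Leaving out libraries, mean effective numbers ranged from 9.78 to 11.5 and from 12.5 to 14.8 for heavy genes in WT and Ahr-KO, and from 9.94 to 11.1 and from 11.0 to 13.0 for kappa genes. Mean V gene totals ranged from 3.52 to 103 CPM (WT LT-HSC), 76.9 to 373 CPM (Ahr-KO LT-HSC), 4892 to 8783 CPM (WT MPP) and 2189 to 3052 CPM (Ahr-KO MPP). Among 24 log2 fold changes of named genes, 396 of 407 alternatives kept direction and side of the threshold, 9 passed the threshold, all with DESeq2, and 2 reversed: Jchain in LT-HSC was -3.32 without Ahr-KO LT-HSC 2 and 3, and -3.67 without these and WT LT-HSC 1. The cause was not tested beyond the libraries left out.

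Same replicate numbers are not said to pair the samples, and deviations of same-numbered WT and Ahr-KO MPP libraries correlated at -0.226 to -0.007. Those of same-numbered Ahr-KO LT-HSC and MPP libraries correlated at 0.032 to 0.245, and numbers 3 and 4 matched their own number best; the comparison of effects was not fitted with a block. With the number as a replicate block, 0 genes were called in MPP (752 at an unadjusted p under 0.05) and 0 in LT-HSC, and 0 V genes in both, with edgeR. In MPP, V genes at an unadjusted p under 0.05 went from 33 lower and 1 higher to 20 lower and 3 higher under the block, and their median log2 fold change from -1.70 to -1.39.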

Other observations

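Grouped by V gene family, the heavy chain counts of the MPP libraries fell mostly to Ighv1, the largest family, at 32.9% ± 23.2 in WT and 44.1% ± 14.4 in Ahr-KO, Ighv11 at 24.3% ± 12.3 and 17.4% ± 17.7, and Ighv7 at 20.3% ± 12.4 and 16.7% ± 5.27 (SD, n = 5 each). Ighv1 ranged from 10.7% in WT MPP 5 to 61.1% in WT MPP 1. Ighv11 and Ighv7 together hold 6 of the 183 heavy chain symbols. Among kappa families, Igkv1 held 7.67% ± 8.27 in WT and 32.1% ± 18.2 in Ahr-KO (SD, n = 5 each), highest in Ahr-KO MPP 3 (54.5%) and lowest in WT MPP 4 (0.801%). The genotypes overlapped: WT MPP 1 (11.6%) and WT MPP 5 (20.4%) lay above Ahr-KO MPP 2 (8.39%). Igkv4, the family with the most kappa symbols, held 17.0% ± 20.3 in WT and 7.96% ± 9.38 in Ahr-KO, with 53.0% in WT MPP 1. In Ahr-KO LT-HSC 3, Ighv1 held 98.2% of heavy and Igkv4 94.2% of kappa counts. These shares are a description, without a test.

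Of all V genes, 2 had at least 20 counts over the 10 libraries of 1 genotype and none in the other: Igkv11-106 (52 counts) and Ighv1-38 (34 counts), both in WT. Of the Igkv11-106 counts, 48 lay in WT MPP 1, and without that library the gene would not reach 20.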
